A study of Mus musculus with 16 samples.

Results

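The A-kinase anchoring proteins described here are the products of 10 genes, Akap1, Akap5, Akap6, Akap7, Akap8, Akap9, Akap10, Akap11, Akap12 and Akap13. They were taken from the deposited table by gene symbol. All 10 had a row among the 14538 genes of the table, and all 10 passed the minimum of 10 normalized counts on average, as did 11841 genes in all.

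RNA was sequenced from the tibialis anterior, a fast-twitch shin muscle, of male wild-type C57BL/6 mice, with 1 library per mouse. The 16 libraries came from 5 mice given vehicle, 6 mice given recombinant GDF15 and 5 pair-fed mice. All 3 groups ate a diet rich in fat and fructose that provokes fatty liver disease (NASH diet), were kept at about 29 °C from 8 weeks of age, and were caged singly once treatment began. GDF15, a circulating cytokine that lowers food intake through its receptor GFRAL in the hindbrain, was injected under the skin once a day. The protocol names doses of 0.3, 1 or 5 nmol/kg, and the labels give neither the dose of each mouse, its age at sampling, nor any injection of the pair-fed mice. The pair-fed mice were rationed to what GDF15-treated mice had eaten on the previous day. The comparison of GDF15 with pair-feeding therefore asks what GDF15 did at matched intake. The comparison of pair-feeding with vehicle asks what the rationing did. The labels do not give meal times, so the amount and the timing of food cannot be told apart. The labels do not say whether mice of different groups shared a litter, a site or a preparation day, and the p-values measure the spread between these mice.

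cAMP activates protein kinase A (PKA), a tetramer of regulatory and catalytic subunits that is present throughout the cell. Anchoring proteins hold PKA at a given place: each binds the regulatory subunits through an amphipathic helix and carries a separate targeting sequence for a membrane, an organelle or the cytoskeleton. Most also bind phosphatases, phosphodiesterases, other kinases or the substrate itself, so that a rise in cAMP acts on the substrates held in the same complex. In skeletal muscle, β-adrenergic signalling through PKA acts on calcium channels, calcium release and glycogen breakdown, and anchored pools of the kinase are known at the transverse tubule, the sarcoplasmic reticulum, the nuclear envelope and the mitochondrial outer membrane.

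The deposited values were turned back into normalized counts, which are estimated read counts divided by a size factor of the library, and every level below is on that scale unless a per kb scale is named. Approximate depth, from the step between low values, was 9487162 to 15053310 reads, with medians of 13946492 in vehicle, 12143249 in GDF15-treated and 14271130 in pair-fed mice. Libraries of the same group correlated at r = 0.978 to 0.986 across genes, and no pair was identical. Markers of skeletal myofibres (Acta1, Ckm, Myh4, Tnnt3 and Mylpf) were present in every library, at a summed level of 1.72e+06 to 1.96e+06 in vehicle, 1.75e+06 to 2.02e+06 in GDF15-treated and 1.90e+06 to 2.24e+06 in pair-fed mice. All 5 lay above 0 on the log2 scale in pair-fed compared with vehicle mice, with a median of 0.15, and their part in the results was not tested. Together the 10 genes took 0.0366% to 0.0483% of all normalized counts.

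The level of a gene can be set beside that of another only per length of transcript. Per kb of the median coding transcript of GENCODE vM21, the vehicle group had 1668 ± 87.0 normalized counts per kb of Akap8, 678 ± 71.2 of Akap9, 524 ± 23.0 of Akap1, 332 ± 11.1 of Akap13, 190 ± 26.3 of Akap7 and 77.2 ± 2.77 of Akap6 (SD, n = 5). Akap11 followed at 39.8 ± 5.64, Akap12 at 32.2 ± 3.39, Akap10 at 29.9 ± 2.21 and Akap5 at 2.95 ± 0.71 per kb. The vehicle mice overlapped between neighbours in this order for Akap11 with Akap12 and for Akap12 with Akap10, and for no other neighbours. The order rests on the transcript taken as the length. The median and longest coding transcripts were 467 and 3731 bases for Akap8, and 1302.5 and 13123 for Akap9. They were 2260 and 12597 bases for Akap13 and 720 and 2321 for Akap7, but 3721 and 3758 for Akap1. Per kb of the longest coding transcript, Akap1 came first at 518 ± 22.8, before Akap8 at 209 ± 10.9 and Akap9 at 67.3 ± 7.07, and neighbours overlapped from Akap9 through Akap13 and Akap7 to Akap6. Akap5 was lowest on both scales.

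**Figure D1:**
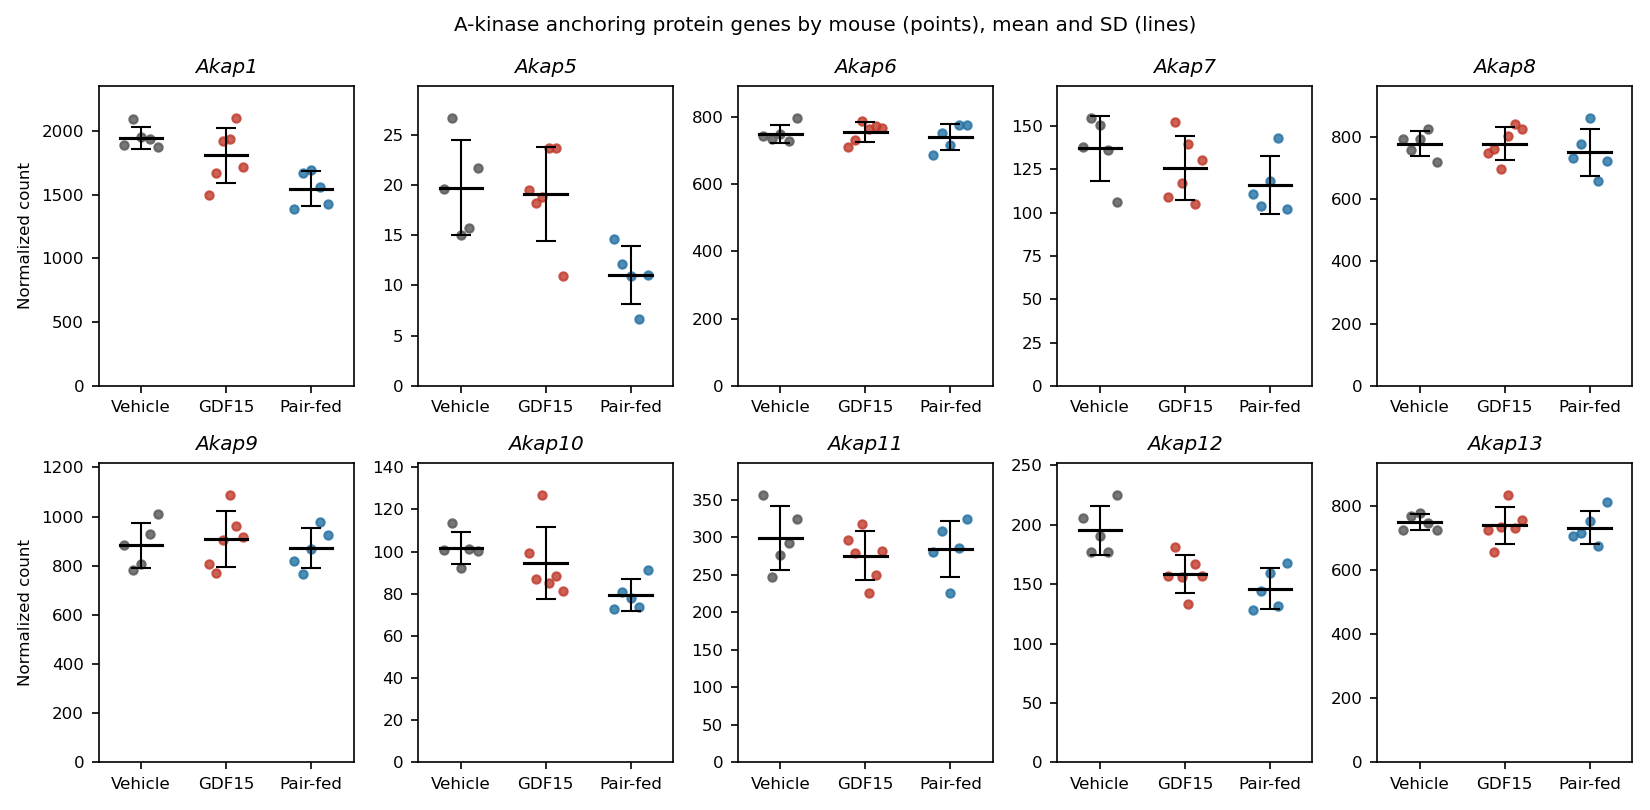
Normalized count (linear axis from 0) of each of the 10 genes, with 1 point per mouse, the mean of each group as a long line and its SD as the error bar, for 5 vehicle, 6 GDF15-treated and 5 pair-fed mice. Every pair-fed mouse lies below every vehicle mouse in the panels of Akap1, Akap5, Akap10 and Akap12, while the groups overlap in the other 6 panels.

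In pair-fed compared with vehicle mice, all 10 anchoring protein genes had a log2 fold change below 0, from -0.79 for Akap5 to -0.018 for Akap6 and Akap9, with a median of -0.16, where the median of all genes tested was 0.0013 and 49.8% of them lay below 0. Akap1, Akap5 and Akap12 were lower at an adjusted p under 0.1 (limma, Benjamini-Hochberg over 11841 genes), 3 of 10 where 3.17% of all genes tested were lower by that rule. Akap5 also passed the fold threshold of 0.6 on the log2 scale, 1 of 10 where 0.49% of all genes tested were lower by both thresholds. The vehicle and pair-fed mice did not overlap for Akap1, Akap5, Akap10 and Akap12, each lower in pair-fed mice. These are 4 of 10, where 2.65% of all genes tested were lower without overlap. The gap was narrow for Akap5, with 14.6 as the highest pair-fed and 15.04 as the lowest vehicle value. For Akap10 these were 91.3 and 92.5. The other 6 genes had adjusted p-values from 0.325 for Akap7 to 0.943 for Akap9.

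In GDF15-treated compared with pair-fed mice, 9 of 10 genes had a log2 fold change above 0, with a median of 0.085 and a range from -0.046 for Akap11 to 0.74 for Akap5, where 50.8% of all genes tested lay above 0. No member was called by both thresholds, where 0.279% of all genes tested were, and none had an adjusted p under 0.1, where 2.17% had, the smallest being 0.184 (limma). Without adjustment, 3 of 10 had a p under 0.05, where 13.2% of all genes tested had. The 95% intervals of the 10 differences ran from -0.27 to 1.25 on the log2 scale. The pair-fed mice are a side of this comparison and of the preceding one, so a low or high value in them moves both. Marker lists of other cells also lay to 1 side in this comparison. All 5 markers lay above 0 in each of the lists for fibroblasts (median 0.35), Schwann cells and nerve (0.32), leukocytes (0.61) and smooth muscle and pericytes (0.079), as did the 3 red blood cell markers tested (1.17), and all 5 myofibre markers lay below 0 (median -0.086). None of these passed at an adjusted p under 0.1 (limma), and their part in the members' values was not tested.

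In GDF15-treated compared with vehicle mice, 2 of 10 genes lay above 0 and 8 below, where 49.6% of all genes tested lay below, with a median of -0.084 and a range from -0.30 for Akap12 to 0.038 for Akap9. None was called by both thresholds, where 0.304% of all genes tested were, and none had an adjusted p under 0.1, where 0.769% had (limma). Without adjustment Akap12 alone had a p under 0.05, 1 of 10 where 11% of all genes tested had. The 95% intervals of the 10 differences ran from -0.57 to 0.46 on the log2 scale, so a difference of the size of the fold threshold lies outside each of them.

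**Figure D2:**
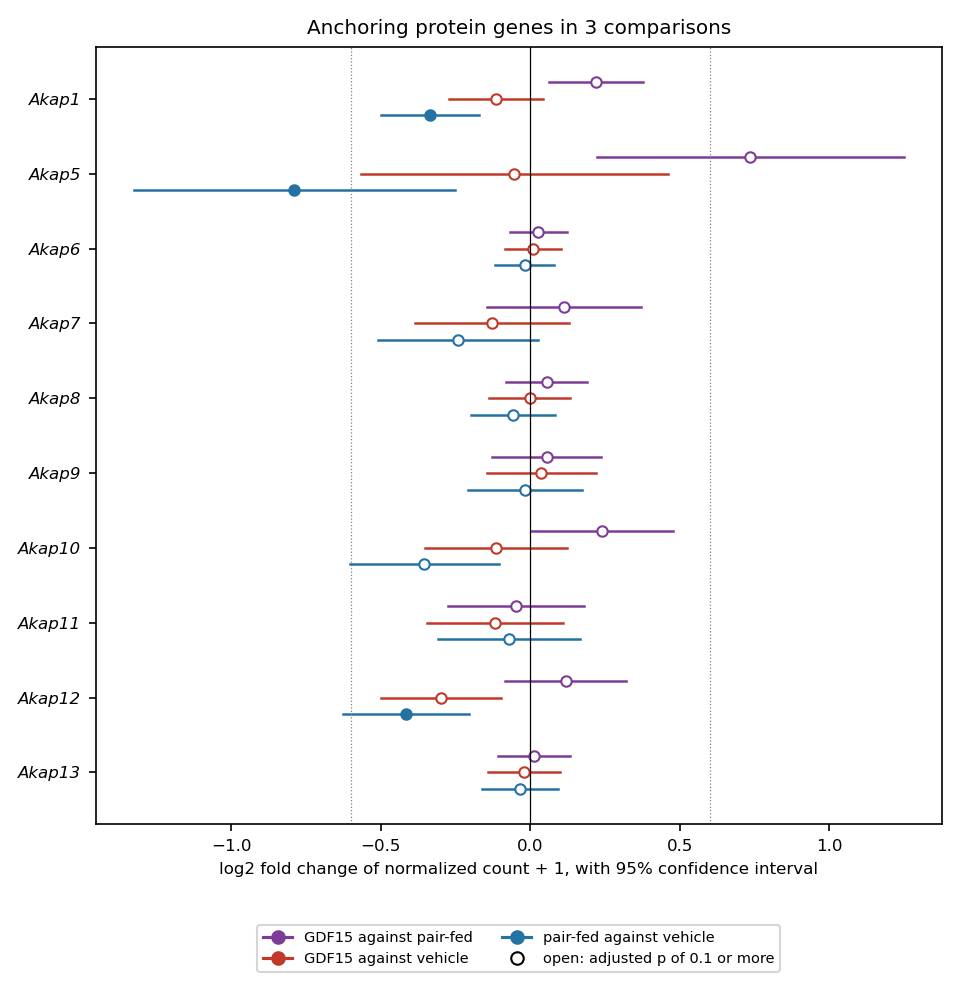
Log2 fold change of normalized count + 1 (x axis) with its 95% confidence interval (lines) for each of the 10 genes in the 3 comparisons, with filled points at an adjusted p under 0.1 (limma) and dotted lines at the fold threshold of 0.6 in either direction. The filled points are Akap1, Akap5 and Akap12 in pair-fed against vehicle, and only the point of Akap5 lies beyond -0.6.

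Akap1 (GRCm38 chr11:88830792-88864586, minus strand) encodes the anchoring protein of the mitochondrial outer membrane, which holds PKA beside the fission protein Drp1 (gene Dnm1l) and also binds messenger RNA. The vehicle mice had 1891, 2091, 1949, 1937 and 1872 normalized counts. The pair-fed mice had 1386, 1672, 1692, 1558 and 1429. The GDF15-treated mice ran from 1496 through a median of 1819.5 to 2101. The pair-fed values all lay below the lowest vehicle value, and the GDF15-treated mice spanned both groups, with 1 mouse below 3 of 5 pair-fed mice and 1 above every vehicle mouse. Means were 1948 ± 85.7 in vehicle (SD, n = 5), 1808 ± 219 in GDF15-treated (SD, n = 6) and 1547 ± 138 in pair-fed mice (SD, n = 5). Akap1 was 1.26-fold lower in pair-fed than in vehicle mice (log2 fold change -0.34, SE 0.078, 95% interval -0.50 to -0.17, limma adjusted p = 0.0261). The size of that difference was under the fold threshold. The difference between GDF15-treated and pair-fed mice was 0.22 (SE 0.075, limma adjusted p = 0.199). Of 28 alternatives to that test 1 had an adjusted p under 0.1, the fit without GDF15-treated mouse 1 (0.27, adjusted p = 0.0555), and over all 28 the adjusted p ran up to 0.432 (limma). GDF15-treated and vehicle mice differed by -0.12 (SE 0.075, adjusted p = 0.611).

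The proteins that place PKA at the plasma membrane are Akap5, Akap12 and Akap7. Akap5 (GRCm38 chr12:76324891-76334153, plus strand) encodes the rodent protein AKAP150, which holds PKA, protein kinase C and the phosphatase calcineurin beside adrenergic receptors and ion channels. It was the lowest of the 10 per kb. The vehicle mice had 19.6, 26.6, 15.04, 15.7 and 21.7 normalized counts and the pair-fed mice 14.6, 12.1, 10.9, 6.62 and 11.01. The GDF15-treated mice ran from 10.9 through a median of 19.1 to 23.7. The highest pair-fed value lay just under the lowest vehicle value, and 1 of 6 GDF15-treated mice fell within the pair-fed range. Means were 19.7 ± 4.74 in vehicle (SD, n = 5), 19.1 ± 4.69 in GDF15-treated (SD, n = 6) and 11.1 ± 2.90 in pair-fed mice (SD, n = 5). Akap5 was 1.73-fold lower in pair-fed than in vehicle mice on the scale of normalized count + 1 (log2 fold change -0.79, SE 0.255, 95% interval -1.32 to -0.25, limma adjusted p = 0.0990). This call sat at the threshold: of 27 alternatives that gave a value, 7 kept it, and the adjusted p ran from 0.0702 to 0.233. The log2 fold change ran from -0.89 to -0.63 with a library left out, and was -0.13 on the deposited log2 values, whose scale compresses low counts. With 1 library left out, the call remained without GDF15-treated mouse 6 (adjusted p = 0.0715) and without pair-fed mouse 3 (0.0958), and was lost without any of the other 14 libraries, with adjusted p-values up to 0.227 (limma). GDF15-treated and pair-fed mice differed by 0.74 (SE 0.24, limma adjusted p = 0.184). Of 27 alternatives to that test 1 had an adjusted p under 0.1, the fit without GDF15-treated mouse 6 (0.88, adjusted p = 0.0956), while without pair-fed mouse 5 the difference was 0.58 with an adjusted p of 0.395 (limma). GDF15-treated and vehicle mice differed by -0.053, with a 95% interval of -0.57 to 0.46 (adjusted p = 0.966).

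Akap12 (GRCm38 chr10:4266380-4359470, plus strand) encodes gravin, a scaffold of the plasma membrane and cytoskeleton that binds PKA, protein kinase C and the β2-adrenergic receptor. The vehicle mice had 206, 177, 191, 177 and 225 normalized counts and the pair-fed mice 128, 144, 159, 132 and 168. The GDF15-treated mice ran from 133 through a median of 157 to 181. All pair-fed mice lay below all vehicle mice, and 5 of 6 GDF15-treated mice did too. Means were 195 ± 20.6 in vehicle (SD, n = 5), 159 ± 16 in GDF15-treated (SD, n = 6) and 146 ± 17.2 in pair-fed mice (SD, n = 5). Akap12 was 1.33-fold lower in pair-fed than in vehicle mice (log2 fold change -0.42, SE 0.10, 95% interval -0.63 to -0.21, limma adjusted p = 0.0297), short of the fold threshold. In GDF15-treated compared with vehicle mice the difference was -0.30 (SE 0.096, 95% interval -0.50 to -0.096, limma adjusted p = 0.233), and GDF15-treated and pair-fed mice differed by 0.12 (adjusted p = 0.637).

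Gravin is also made by cells of the vessel wall, so the marker levels of those cells are given beside it. In bulk muscle, fewer cells of a type and less RNA per cell cannot be told apart. The summed level of 5 endothelial markers (Pecam1, Cdh5, Tie1, Kdr and Egfl7) was 4704 to 5557 in vehicle, 3901 to 4905 in GDF15-treated and 4089 to 4882 in pair-fed mice. All 5 lay below 0 on the log2 scale in GDF15-treated and 4 of 5 in pair-fed compared with vehicle mice. Of these only Kdr, the VEGF receptor, passed at an adjusted p under 0.1, with differences of -0.66 (adjusted p = 0.00116) and -0.50 (adjusted p = 0.00473, limma). The summed level of 5 smooth muscle and pericyte markers (Myh11, Acta2, Cnn1, Rgs5 and Pdgfrb) was 7278 to 8362 in vehicle, 6629 to 8306 in GDF15-treated and 6732 to 7341 in pair-fed mice. All 5 lay below 0 in pair-fed (median -0.14) and in GDF15-treated (median -0.046) compared with vehicle mice, and Cnn1, the smooth muscle calponin, passed in the former at -1.47 (limma adjusted p = 0.0523). No marker of either list was at 0 in all libraries, and their part in the result for Akap12 was not tested. In the other lists, Ptprc, the pan-leukocyte antigen, differed by -0.97 (adjusted p = 0.0634) and Ckm, the muscle creatine kinase, by 0.15 (adjusted p = 0.0997) in pair-fed compared with vehicle mice. No marker of slow myofibres, fibroblasts, adipocytes, Schwann cells, satellite cells or red blood cells passed in any comparison (limma).

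Akap7 (GRCm38 chr10:25169090-25307870, minus strand) encodes the small anchoring protein that links PKA to the L-type calcium channel of the transverse tubule and to phospholamban. The vehicle mice had 138, 155, 151, 136 and 106 normalized counts and the pair-fed mice 111, 104, 119, 143 and 102. The GDF15-treated mice ran from 105 to 152. The 3 groups overlapped. The difference between pair-fed and vehicle mice was -0.24, with a 95% interval of -0.51 to 0.028 (limma adjusted p = 0.325). Exons of Akap7 overlap Gm40617 on the opposite strand, and the strand setting of the counting is not given in the sources used here.

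Akap10 (GRCm38 chr11:61871307-61930252, minus strand) encodes a dual-specific protein that binds both type I and type II regulatory subunits and carries domains of the regulator of G-protein signalling family. The vehicle mice had 101, 113, 92.5, 101 and 100.4 normalized counts and the pair-fed mice 72.8, 80.9, 78.0, 73.7 and 91.3. The GDF15-treated mice ran from 81.2 through a median of 87.9 to 127. All 5 pair-fed mice lay below all 5 vehicle mice, and the GDF15-treated mice reached from within the pair-fed range to above the highest vehicle mouse. Means were 102 ± 7.50 in vehicle (SD, n = 5), 94.7 ± 17.0 in GDF15-treated (SD, n = 6) and 79.3 ± 7.43 in pair-fed mice (SD, n = 5). The difference between pair-fed and vehicle mice was -0.35 (SE 0.12, 95% interval -0.60 to -0.11), with an adjusted p of 0.109 (limma), which missed the threshold. It passed without GDF15-treated mouse 3, the highest of the Akap10 values, at an adjusted p of 0.0577. GDF15-treated and pair-fed mice differed by 0.24 (adjusted p = 0.375).

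**Figure D3:**
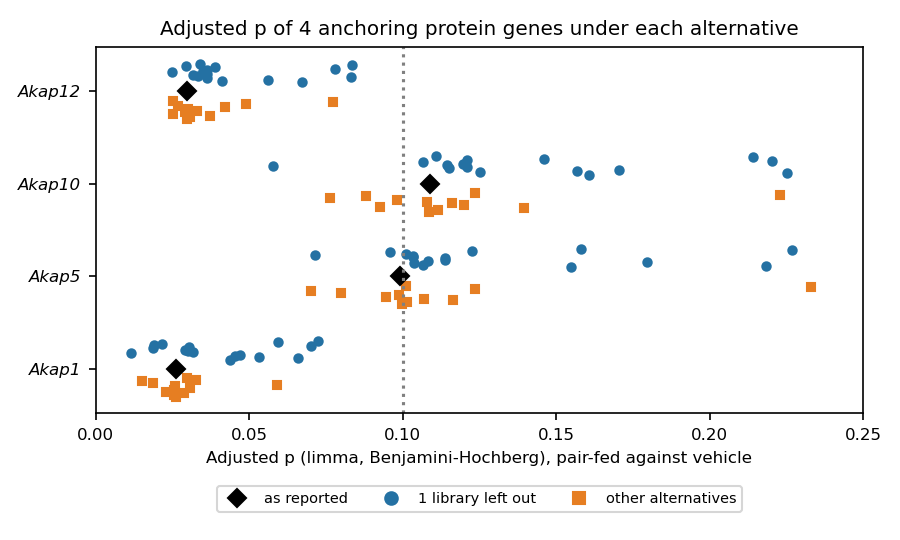
Adjusted p (x axis, limma with Benjamini-Hochberg adjustment) of Akap1, Akap5, Akap10 and Akap12 in pair-fed against vehicle as reported (diamonds), with each of 16 libraries left out (circles) and under the other alternatives (squares), with the threshold of 0.1 dotted. Akap1 and Akap12 stay left of the line in all 28 alternatives, while Akap5 and Akap10 lie on both sides of it.

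Promoter sequence of Akap1, Akap5 and Akap10, which did not overlap between vehicle and pair-fed mice, is shown because a cAMP response element is the best known DNA site through which PKA acts on genes, by way of the factor CREB. RefSeq promoters of assembly GRCm38.p6, which hold 250 bases before to 50 bases after the start of transcription, were at hand for 9 of 10 members, all but Akap12, as 13 promoters. The letters searched on both strands were TGACGTCA, the full element, TGACG, the shorter core that the full element also contains, and CACGTG, the E-box. Matches of the shorter core and the E-box are in capitals. The promoter of Akap1 at the gene's outer start is chr11:88864537-88864836 (minus strand), that of Akap5 is chr12:76324641-76324940 (plus strand) and that of Akap10 is chr11:61930208-61930507 (minus strand). The promoter of Akap11 at chr14:78536811-78537110 (minus strand) is added as the only one of the 13 with the letters TGACG.
Akap1: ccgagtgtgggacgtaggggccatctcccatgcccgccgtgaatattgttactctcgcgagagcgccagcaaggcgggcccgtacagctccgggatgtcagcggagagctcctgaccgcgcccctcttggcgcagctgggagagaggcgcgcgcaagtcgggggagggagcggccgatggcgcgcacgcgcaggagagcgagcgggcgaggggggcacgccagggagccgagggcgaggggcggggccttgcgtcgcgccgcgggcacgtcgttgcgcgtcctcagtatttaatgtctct
Akap5: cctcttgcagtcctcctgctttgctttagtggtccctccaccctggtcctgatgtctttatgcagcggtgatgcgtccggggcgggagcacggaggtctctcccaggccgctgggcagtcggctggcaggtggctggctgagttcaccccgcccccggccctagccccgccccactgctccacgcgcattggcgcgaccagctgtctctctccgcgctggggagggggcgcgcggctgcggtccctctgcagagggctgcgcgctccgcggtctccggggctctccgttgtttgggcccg
Akap10: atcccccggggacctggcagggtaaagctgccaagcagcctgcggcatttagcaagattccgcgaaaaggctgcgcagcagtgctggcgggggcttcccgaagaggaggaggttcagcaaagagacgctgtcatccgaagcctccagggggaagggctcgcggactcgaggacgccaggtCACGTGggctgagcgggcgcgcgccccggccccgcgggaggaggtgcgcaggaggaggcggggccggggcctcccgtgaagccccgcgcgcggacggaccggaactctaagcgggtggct
Akap11: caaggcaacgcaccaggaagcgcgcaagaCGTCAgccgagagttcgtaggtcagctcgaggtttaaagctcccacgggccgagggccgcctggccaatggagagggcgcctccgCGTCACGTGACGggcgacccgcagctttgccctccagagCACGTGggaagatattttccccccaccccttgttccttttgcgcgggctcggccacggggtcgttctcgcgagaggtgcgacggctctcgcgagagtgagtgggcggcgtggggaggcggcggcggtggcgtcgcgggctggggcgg
No member's promoter held the full element, which 1.79% of 32851 RefSeq promoters of the same length held. The letters TGACG were found in 1 of 13 promoters, that of Akap11, with 3 matches at -221, -136 and -129 from the start (leftmost base), and in 20.8% of all promoters. The E-box was in the promoters shown of Akap10 and Akap11 and in 1 promoter of Akap7, and in 7.15% of all promoters. In Akap11 an E-box overlaps the last pair of TGACG matches, which lie on opposite strands. Akap11, the member with these matches, differed by -0.072 between pair-fed and vehicle mice (limma adjusted p = 0.791).

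Akap6 (GRCm38 chr12:52699383-53155599, plus strand) encodes mAKAP, the scaffold of the nuclear envelope in striated muscle that holds PKA, a phosphodiesterase and the ryanodine receptor. Its coefficient of variation within a group was 3.59% to 5.22%, beside 3.36% to 7.83% for Akap13 and 24.0% to 26.2% for Akap5. Its levels were 728 to 796 in vehicle, 709 to 786 in GDF15-treated and 687 to 775 in pair-fed mice. The groups overlapped, and the difference between pair-fed and vehicle mice was -0.018 with a 95% interval of -0.12 to 0.081 (limma adjusted p = 0.887). The GDF15-treated and pair-fed mice differed by 0.027 with an interval of -0.067 to 0.12.

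Akap8 and Akap9 act at the nucleus and the centrosome. Akap8 (GRCm38 chr17:32303672-32321238, minus strand) encodes AKAP95, a zinc finger protein of the nuclear matrix and chromatin, and its levels were 719.7 to 826 in vehicle, 697 to 841 in GDF15-treated and 659 to 861 in pair-fed mice. Akap9 (GRCm38 chr5:3928054-4081310, plus strand) encodes a large protein of the centrosome and Golgi, a short form of which, yotiao, holds PKA at ion channels. Its levels were 783 to 1012 in vehicle, 771 to 1089.6 in GDF15-treated and 768 to 977 in pair-fed mice. The groups overlapped for both genes. Pair-fed and vehicle mice differed by -0.057 for Akap8 (95% interval -0.20 to 0.084) and by -0.018 for Akap9 (95% interval -0.21 to 0.17). Exons of Akap9 overlap Cyp51, a gene of cholesterol synthesis, on the opposite strand.

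Akap11 and Akap13 hold other signalling enzymes beside PKA. Akap11 (GRCm38 chr14:78492246-78536808, minus strand) encodes AKAP220, which binds protein phosphatase 1 and the glycogen synthase kinase GSK3β, and its levels were 247 to 357 in vehicle, 226 to 318 in GDF15-treated and 226 to 325 in pair-fed mice. Akap13 (GRCm38 chr7:75455534-75754609, plus strand) encodes AKAP-Lbc, an exchange factor for the GTPase RhoA that also holds protein kinase D, and its levels were 725 to 780.4 in vehicle, 658 to 837 in GDF15-treated and 676 to 812 in pair-fed mice. The groups overlapped for both. Pair-fed and vehicle mice differed by -0.072 for Akap11 (95% interval -0.31 to 0.17) and by -0.034 for Akap13 (95% interval -0.16 to 0.093). The intervals of Akap6, Akap8, Akap9, Akap11 and Akap13 all lay within the fold threshold in the 3 comparisons.

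Over the 16 libraries, the members varied together in some pairs and in opposite directions in others. Of the 45 pairs, 30 had a Pearson r above 0. The libraries share their size factors, and this r holds the differences between groups as well as those between mice of a group. The highest were Akap5 with Akap10 (0.62), Akap6 with Akap9 (0.61) and Akap1 with Akap5 (0.61). Taken as deviations from the group means, these became 0.28, 0.60 and 0.20. The lowest was Akap8 with Akap11 (-0.47).

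Akap1 had the smallest p of the 10 in the overall test of the 3 groups (limma F test, adjusted p = 0.0552), and the tested genes whose levels over the 16 libraries were most like it were named by their Pearson r. They were Qk, an RNA-binding protein that directs splicing in muscle (r = 0.94), Ckmt2, the mitochondrial creatine kinase of striated muscle (0.94), and Mb, myoglobin, the oxygen store of oxidative fibres (0.94). Taken as deviations from the group means, the values were 0.90, 0.90 and 0.93. Pair-fed mice 2 and 6 were the farthest from the median of Akap1. Without them the plain r, group differences included, was 0.90, 0.89 and 0.89 over 14 libraries. Spearman's rho over the 16 libraries was 0.88, 0.83 and 0.90. Mean Mb was 45092 in vehicle, 37094 in GDF15-treated and 32568 in pair-fed mice, and pair-fed and vehicle mice differed by -0.50 on the log2 scale. Mean Ckmt2 was 18602, 16609 and 14311 in the same order, with a difference of -0.39 between pair-fed and vehicle mice. Mean Qk was 3943, 3650 and 3373, with a difference of -0.23. These genes were chosen for following Akap1 over the same libraries, its lower values in pair-fed mice included, so their group differences are a description and no test of them is given. The summed level of 5 slow myofibre markers (Myh7, Tnnt1, Myl3, Tnni1 and Atp2a2) was 1209 to 1686 in vehicle, 1061 to 2815 in GDF15-treated and 982 to 3138 in pair-fed mice.

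**Figure D4:**
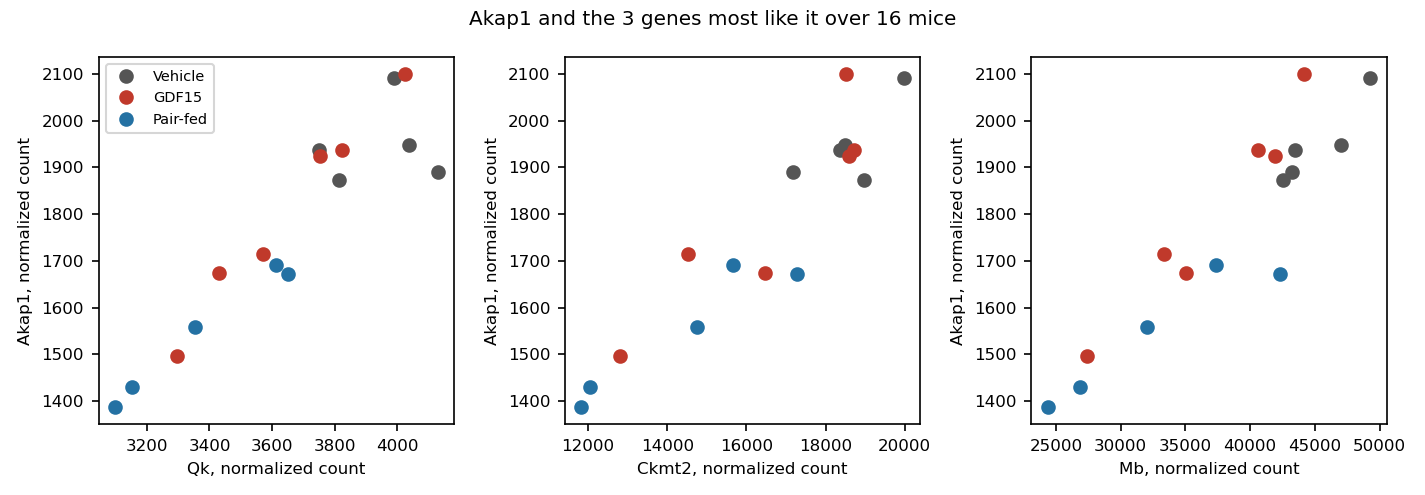
Normalized count of Akap1 (y axes) against those of Qk, Ckmt2 and Mb (x axes), with 1 point per mouse in 16 mice, on axes that do not start at 0. In each panel every vehicle mouse lies above every pair-fed mouse on the y axis, pair-fed mice 2 and 6 are the lowest points, and the GDF15-treated mice span both groups, with GDF15-treated mouse 5 the topmost point.

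The kinase that these proteins anchor was measured through its subunits and inhibitors. Of 9 genes listed, Pkib had a mean of 1.00 normalized counts and was not tested. None of the other 8 was called or had an adjusted p under 0.1 in any comparison, and without adjustment 0 had a p under 0.05 in GDF15-treated compared with pair-fed mice, 0 compared with vehicle and 2 in pair-fed compared with vehicle mice (limma), where 13.2%, 11% and 18.9% of all genes tested had. Prkaca, the main catalytic subunit, had 1489 ± 43.0 normalized counts in vehicle (SD, n = 5), 1519.7 ± 69.6 in GDF15-treated (SD, n = 6) and 1475 ± 37.3 in pair-fed mice (SD, n = 5), and its 95% interval in GDF15-treated compared with pair-fed mice was -0.038 to 0.12. Prkacb, the second catalytic subunit, differed by -0.11 (adjusted p = 0.239) and Prkar1a, the type I regulatory subunit, by -0.13 (adjusted p = 0.262) in pair-fed compared with vehicle mice (limma). Prkar2a, the type II regulatory subunit that most anchoring proteins bind, had means of 3977 ± 205 in vehicle (SD, n = 5), 3871 ± 254 in GDF15-treated (SD, n = 6) and 3899.7 ± 144 in pair-fed mice (SD, n = 5). The β forms of the regulatory subunits, Prkar1b and Prkar2b, had group means of 14.4 to 21.9 and spread too widely for a difference of the size of the fold threshold to be detectable, with intervals from -0.86 to 1.48 over the 3 comparisons. Prkar1b also shares exon sequence with Gm15672 on the same strand. The inhibitor genes Pkia and Pkig lay at group means of 9118 to 9536 and of 669 to 706.

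Of 22 other anchoring proteins listed, 18 had a row and 15 were tested. Their median log2 fold changes were 0.033 in GDF15-treated compared with pair-fed, 0.023 in GDF15-treated compared with vehicle and -0.023 in pair-fed compared with vehicle mice. Without adjustment, 5, 2 and 4 of the 15 had a p under 0.05 in the same order, where 13.2%, 11% and 18.9% of all genes tested had, and the smallest adjusted p in GDF15-treated compared with pair-fed mice was 0.121 (limma). Cbfa2t3, a transcriptional corepressor of which a form anchors PKA at the Golgi, was the only gene of the list called, 1 of 15 in pair-fed compared with vehicle mice where 0.49% of all genes tested were lower by both thresholds, with 636, 584, 479, 562 and 807 normalized counts in vehicle and 429.7, 381, 489, 329 and 291 in pair-fed mice. The groups overlapped by 1 vehicle and 1 pair-fed mouse. The difference was -0.68 (SE 0.18, limma adjusted p = 0.0503), and the list held 0 calls without vehicle mouse 5, pair-fed mouse 5 or pair-fed mouse 6. Exons of Cbfa2t3 overlap Gm10612 on the opposite strand. Akap2 had no row of its own, and the fused annotation Pakap, which covers it and Palm2, is named here after its values were seen. Pakap had 21.0, 9.96, 24.7, 9.16 and 0 normalized counts in vehicle and 6.63, 0, 0, 33.1 and 13.7 in pair-fed mice, and 16.6 to 38.5 in GDF15-treated mice. The groups overlapped, and GDF15-treated and pair-fed mice differed by 2.39 with an SE of 0.88 (limma adjusted p = 0.233). Pde4dip, myomegalin, also named after its values were seen, was the only gene of the list without overlap in this comparison, 1 of 15 where 1.06% of all genes tested were lower without overlap. It ran from 41067 to 43541 normalized counts in GDF15-treated, 44863 to 49058 in pair-fed and 38856 to 47133 in vehicle mice, and GDF15-treated and pair-fed mice differed by -0.14 with an SE of 0.045 (limma adjusted p = 0.176).

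The partners that anchoring proteins hold beside PKA, 34 genes for cyclases, phosphodiesterases, phosphatases, kinases and channels, were all tested, and their median log2 fold changes were -0.0074, 0.022 and 0.0052 in GDF15-treated against pair-fed, GDF15-treated against vehicle and pair-fed against vehicle. In pair-fed compared with vehicle mice 3 of 34 were higher and 2 of 34 lower at an adjusted p under 0.1, where 3.2% of all genes tested were higher and 3.17% lower. The lower genes were Pde4a and Adcy9. Pde4a, a cAMP phosphodiesterase, had 1522, 1704, 1845, 1633 and 1844 normalized counts in vehicle and 1211, 1401, 1482, 1324 and 1298 in pair-fed mice, which did not overlap. It was 1.27-fold lower (log2 fold change -0.35, SE 0.07, limma adjusted p = 0.0131). Adcy9, the adenylyl cyclase bound by yotiao, had means of 491 ± 42.8 in vehicle and 376 ± 43.5 in pair-fed mice (SD, n = 5 each) and differed by -0.39 (SE 0.09, limma adjusted p = 0.0249). The higher genes were Rapgef4, Gsk3b and Ppp3ca. Rapgef4, the cAMP-activated exchange factor Epac2, was the only gene of the list called, 1 of 34 where 0.329% of all genes tested were higher by both thresholds, with 24.2, 40.1, 13.0, 20.6 and 24.6 normalized counts in vehicle and 54.8, 36.7, 31.7, 57.7 and 38.8 in pair-fed mice, which overlapped. It was 1.82-fold higher (log2 fold change 0.86, SE 0.27, limma adjusted p = 0.0806), and the list held 0 calls without any 1 of vehicle mice 1, 3, 4 and 5 or pair-fed mice 2, 5 and 6.

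In GDF15-treated compared with pair-fed mice 1 of the 34 partners had an adjusted p under 0.1, where 2.17% of all genes tested had. This was Pde4b, another cAMP phosphodiesterase. The GDF15-treated mice ran from 717 through a median of 785 to 979 normalized counts, the pair-fed mice had 1304, 876, 1214, 1333 and 1480.1 and the vehicle mice 1026, 986, 1318, 982 and 1013. GDF15-treated mice were lower than pair-fed mice in all but the pair-fed mouse with the lowest value, which lay within the GDF15-treated range. The difference was -0.57 (SE 0.11, limma adjusted p = 0.0302), just under the fold threshold. Pde4b was called without GDF15-treated mouse 5, GDF15-treated mouse 6 or pair-fed mouse 3, with log2 fold changes of -0.60, -0.62 and -0.69. Compared with vehicle mice the difference was -0.36 (limma adjusted p = 0.230). Rapgef4 had the lowest log2 fold change of the 34 in this comparison. Its level in GDF15-treated mice ran from 15.13 through a median of 23.8 to 33.0 normalized counts, and 1 of 6 lay above the lowest pair-fed mouse. The difference was -0.85 (SE 0.25, limma adjusted p = 0.130), and without vehicle mouse 3 it was called (adjusted p = 0.0948). GDF15-treated and vehicle mice differed in Rapgef4 by 0.017 on the log2 scale, with a 95% interval of -0.52 to 0.55.

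**Figure D5:**
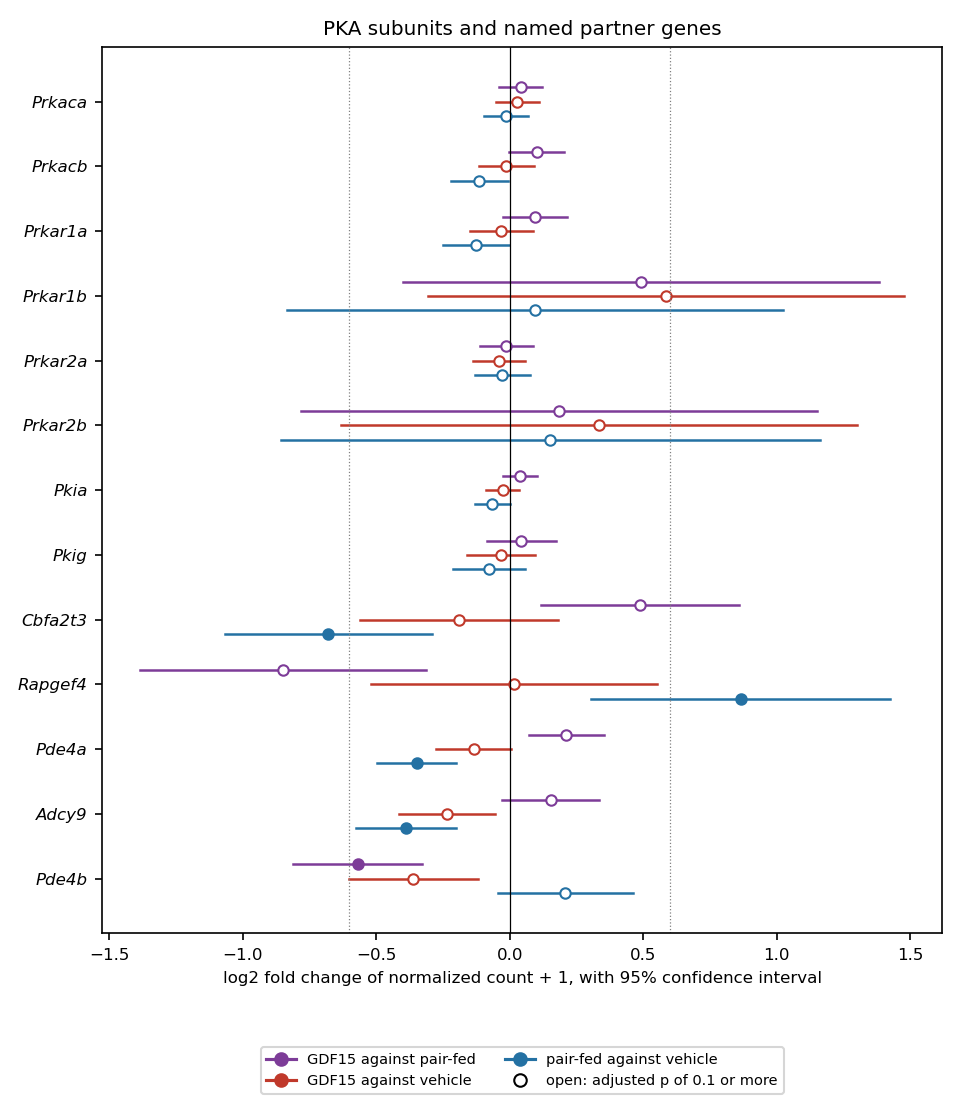
Log2 fold change of normalized count + 1 (x axis) with its 95% confidence interval (lines) for 8 genes of PKA subunits and inhibitors and for Cbfa2t3, Rapgef4, Pde4a, Adcy9 and Pde4b in the 3 comparisons, with filled points at an adjusted p under 0.1 (limma) and dotted lines at 0.6 in either direction. No point of the 8 PKA genes is filled, and the filled points are Pde4b in GDF15 against pair-fed and Cbfa2t3, Rapgef4, Pde4a and Adcy9 in pair-fed against vehicle.

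Upstream and downstream of the anchored kinase, 18 genes for β-adrenergic receptors, the G protein, cyclases and the CREB arm were listed, of which 17 had a row and 15 were tested. None was called or had an adjusted p under 0.1 in any of the 3 comparisons, with smallest adjusted p-values of 0.301 in GDF15-treated against pair-fed, 0.233 in GDF15-treated against vehicle and 0.162 in pair-fed against vehicle (limma). Without adjustment, 4, 1 and 3 of the 15 had a p under 0.05 in the same order, where 13.2%, 11% and 18.9% of all genes tested had. Their median log2 fold changes were 0.036, -0.0053 and -0.048.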

How the data were processed

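The authors used Trim Galore for trimming, Salmon for transcript estimates and DESeq2 for normalization (versions not given in the sources used here; build mm10 per the labels). The table the authors deposited holds log2 values after the variance stabilising transformation of DESeq2, from 7.32 to 19.96. They were turned back into normalized counts with the closed form inverse, whose constant was taken from the smallest deposited value. Transforming the counts forward again gave a largest deviation of 1.78e-15, which checks the arithmetic and not that constant. Low values of genes with 1 transcript fell on whole reads in 86.9% to 96.0% of cases (tolerance 0.1 read), and of genes with more than 4 transcripts in 20.9% to 26.5%, so reads were not recovered and a count test was not run. The step between low values gave approximate depth.

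limma 3.58.1 (R 4.3.3; lmFit, eBayes with trend, two-sided) was fitted to log2(normalized count + 1) of 11841 genes (mean of 10 or more), with the 3 groups sharing 1 estimate of the spread, and p-values were adjusted over these genes (Benjamini-Hochberg). A gene was called at an adjusted p under 0.1 and a log2 fold change beyond 0.6, the thresholds of the study's methods for this muscle. Fold changes of low genes are understated by the pseudocount of 1. Tables were handled in Python 3.11.15. The fit was tested on simulated data. Genes were placed with GENCODE vM21 (GRCm38).

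The members and gene lists were chosen with earlier results of these data known. Named were all 10 members, the PKA genes, called genes of the other lists with up to 3 more at an adjusted p under 0.1, and the 3 genes most like Akap1. Alternatives covered the pseudocount, minimum count, scale, scaling between libraries, variance model, samples fitted, mouse number, depth, thresholds, transcript length and each library left out.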

Additional observations from a re-analysis of the deposited data

Results flagged for a closer look

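Of 69 sets of values of a named gene in a group, 3 held a mouse far from the others by Dixon's 95% criterion, about what chance gives at 1 in 20, and none of the 30 sets of the anchoring protein genes did. Prkar2a was 4152 in pair-fed mouse 2, against 3865 in the next highest pair-fed mouse. Prkar2b was 54.8 in GDF15-treated mouse 2, against 20.0 in the next highest of that group. Pde4b was 1318 in vehicle mouse 3, against 1026 in the next highest vehicle mouse.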

How the results depend on the processing

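Akap1 and Akap12 were lower in pair-fed than in vehicle mice at an adjusted p under 0.1 in 28 of 28 alternatives, at 0.0115 to 0.0725 for Akap1 and 0.0249 to 0.0833 for Akap12 (limma), with log2 fold changes of -0.37 to -0.29 and -0.47 to -0.19. Akap5 was not tested at a minimum mean of 50, and Akap10 passed in 5 of 28 alternatives (adjusted p 0.0577 to 0.225). The 1 called anchoring protein gene in pair-fed against vehicle became 0 with a pseudocount of 8, no minimum count, a minimum mean of 50, the deposited log2 values, the 2 groups alone, the mouse number as a replicate block, depth as a covariate or an adjusted p under 0.05, and 3 with no fold threshold, with 0 to 1 when a library was left out. In GDF15-treated against pair-fed the count of 0 ran from 0 to 1 with a library left out, by both thresholds and by adjusted p alone. The 1 other anchoring protein called in pair-fed against vehicle became 0 on the deposited log2 values and at an adjusted p under 0.05, and ran from 0 to 1 with a library left out, as did the count of 0 in GDF15-treated against pair-fed. The 0 partners called in GDF15-treated against pair-fed became 1 with the block (Rapgef4), with depth as a covariate (Pde4b) and with no fold threshold (Pde4b). The 1 partner called in pair-fed against vehicle became 0 at a minimum mean of 50, on the deposited log2 values, with the 2 groups alone and at an adjusted p under 0.05, and 5 with no fold threshold. Both ran from 0 to 1 with a library left out. The cause of these moves was not tested, except that the deposited log2 scale shrinks the differences of low genes by construction and a minimum of 50 removes Akap5 and Rapgef4 from the test.

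Per kb of the longest rather than the median coding transcript, the mean over all 16 libraries moved from 77.1 to 50.4 for Akap6, from 175 to 54.3 for Akap7, from 1649 to 206 for Akap8, from 683 to 67.8 for Akap9, from 38.0 to 30.5 for Akap11 and from 328 to 58.9 for Akap13.

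No called difference changed sign, and the values that did were near 0. With depth as a covariate, GDF15-treated against pair-fed became -0.0050 for Akap6, -0.041 for Akap9 and -0.030 for Akap13, and GDF15-treated against vehicle became 0.063 for Akap5, -0.020 for Akap6, 0.021 for Akap8 and -0.051 for Akap9. With the replicate block, GDF15-treated against vehicle became 0.017 for Akap5 and -0.00055 for Akap6, and with library quality weights 0.00048 for Akap8. With a library left out, GDF15-treated against pair-fed ran from -0.13 to 0.0084 for Akap11 and from -0.023 to 0.050 for Akap13. GDF15-treated against vehicle ran from -0.14 to 0.090 for Akap5, -0.0025 to 0.031 for Akap6, -0.029 to 0.030 for Akap8, -0.017 to 0.088 for Akap9 and -0.057 to 0.013 for Akap13. Pair-fed against vehicle ran from -0.035 to 0.0091 for Akap6, -0.060 to 0.033 for Akap9 and -0.14 to 0.0094 for Akap11.

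Over all genes, 33, 36 and 97 were called in GDF15-treated against pair-fed, GDF15-treated against vehicle and pair-fed against vehicle, which became 7, 9 and 17 on the deposited log2 values. With quantile normalization the split in GDF15-treated against pair-fed moved from 16 higher and 17 lower to 13 and 22. With the 2 groups alone GDF15-treated against pair-fed held 22, and GDF15-treated against vehicle held 20 with the block and 19 with depth as a covariate. With a library left out the counts ran from 15 to 62, 21 to 38 and 60 to 157. At an adjusted p under 0.1 alone, 257, 91 and 754 genes passed, which ran from 66 to 372, 45 to 97 and 406 to 1048 with a library left out. The 257 became 122 with the 2 groups alone, 115 without the variance trend and 106 with depth as a covariate, and the 91 became 48 without the trend, 38 with the block and 32 with depth. The labels do not say whether the mouse numbers pair the mice. Of 14 pairs of libraries with the same number, 0 had deviations from the group means that correlated above 0.1 (r from -0.0994 to 0.0665). Pairs with different numbers ran from -0.112 to 0.194. A weak pairing would not show in this check, so it cannot decide whether the mice were paired. With the replicate block, adjusted p in pair-fed against vehicle was 0.0327 for Akap1, 0.233 for Akap5 and 0.0772 for Akap12 (limma). The highest value of Akap5 was 26.6 normalized counts, and whether depth limited its result was not tested.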
